A study of Mus musculus with 24 samples.

Results

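Stimulated bone marrow-derived macrophages of diabetic mice were compared with those of control mice in 12 of the 24 libraries of the study, 6 for each phenotype, chosen by their titles with no measured value used. The marrow came from male C57Bl/6 mice. Diabetes had been induced in 6 of them with streptozotocin, which destroys beta cells of the pancreas, and the other 6 had no such treatment. Marrow of every mouse was grown for 7 days in medium with 5 mmol/L glucose and medium conditioned by L929 cells, and the adherent cells were divided into 2 cultures. The culture used here then received 100 ng/mL lipopolysaccharide and 10 ng/mL interferon-gamma for 6 h, in both phenotypes, and the other culture was left unstimulated. All cells were therefore kept at the same glucose level in culture before they were measured. The mice are a chemically induced model of insulin deficiency, and their ages and the duration of diabetes are not given in the sources used here.

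Lipopolysaccharide, a part of the bacterial cell wall, is sensed by TLR4 and its co-receptors and activates the transcription factors NF-kB, AP-1 and IRF3. Interferon-gamma acts through its own receptor, and with lipopolysaccharide it drives macrophages to a microbicidal state with nitric oxide synthesis, antigen presentation and a shift to glycolysis. Secreted type I interferon adds a later wave of interferon-stimulated genes, while IL-10 and NRF2, a transcription factor activated by oxidants and electrophiles, restrain the response.

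Levels below are CPM (the reads of a gene relative to the library size that the authors scaled to), each given over the 6 libraries of a group. Fold differences are log2 differences of CPM + 1 between diabetic and control with their standard error (SE), and adding 1 understates the difference of low genes. P-values come from limma's moderated test with Benjamini-Hochberg adjustment over all genes tested, and a gene is said to have risen, fallen or been called where its adjusted p was under 0.05. The 12 libraries held 22233139 to 34130060 reads in 13568 listed genes, so that 3 reads stood for 0.117 to 0.175 CPM and low genes were limited by counting. Read totals did not separate the phenotypes (two-sided exact permutation test, p = 0.643). Macrophage genes were abundant in all libraries, with Lyz2, Adgre1 and Csf1r at or above 6235, 1969.9 and 892 CPM. Abundance does not mean equal levels. Adgre1 was called lower in diabetic cells except with quantile normalization (log2 -0.28 to -0.05 over the alternatives). Lyz2 was not called, but was called higher under 3 of 27 alternatives (log2 0.04 to 0.21).

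The share of reads in mitochondrially encoded genes was higher in diabetic libraries, 0.731% ± 0.0509 against 0.568% ± 0.0386 (SD, n = 6 each; two-sided exact permutation test, p = 0.00216, the smallest this design allows). The authors' scaling factors were 0.807 to 0.833 in diabetic and 0.726 to 0.785 in control libraries and did not overlap. Markers of other cell types were few. Of 10 B-lineage markers 1 reached the minimum level, of 10 T and NK cell markers 1, of 12 neutrophil markers 2 and of 8 mast cell and eosinophil markers 1, and none of the 7 erythroid markers was among the genes measured here. Several of the measurable markers differed between phenotypes. Summed neutrophil markers were at 28.9 to 35 CPM in control and, without overlap, at 38.9 to 50.9 CPM in diabetic libraries. Summed T and NK cell markers ranged from 2.3 to 5.13 (control) and from 1.07 to 2.83 CPM (diabetic), and those of mast cells and eosinophils from 3.55 to 6.08 (control) and from 6.04 to 8.39 CPM (diabetic), with overlap in both. The summed level of the dendritic cell markers, mostly the integrin gene Itgax, ranged from 78.3 to 192 CPM over control libraries and from 196 to 303 CPM over diabetic ones, although of the 7 tested members 2 rose and 2 fell (median log2 difference -0.07). Of 2 tested progenitor markers 1 rose and 1 fell, and of 4 fibroblast and endothelial markers 2 fell. Their part in the results below was not tested.

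Of 10804 genes tested, 5302 were called, 49.1% of them, with 2951 (27.3%) higher and 2351 (21.8%) lower in diabetic cells. Counts of list members below are to be read against these shares. Members and lists were chosen with earlier results of these data known, so the counts describe the lists and are not independent evidence. Most differences were small. A log2 difference of at least 1 was seen for 105 genes (0.972%), 51 higher (0.472%) and 54 lower (0.5%). The libraries of the phenotypes did not overlap in 2708 genes (25.1%). The first principal component held 63.0% of the variance and placed all diabetic libraries on one side and all control libraries on the other. The split between directions depended on scaling. With total reads in place of the authors' scaling, which shifts the median log2 difference by 0.09, 4569 genes were called higher and 1435 lower. In the order of its columns the table falls into 2 blocks of 12, each with 3 stimulated libraries of each phenotype, and the labels name no batch. Within the first block 3279 genes were called and within the other 3773. The mitochondrial share was higher in diabetic libraries by 0.119 percentage points within the first block and by 0.208 within the other (exact permutation test, p = 0.1 in each, the smallest that 3 against 3 allow). Because these are bulk samples, fewer cells of a type and less RNA per cell cannot be told apart.

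**Figure D1:**
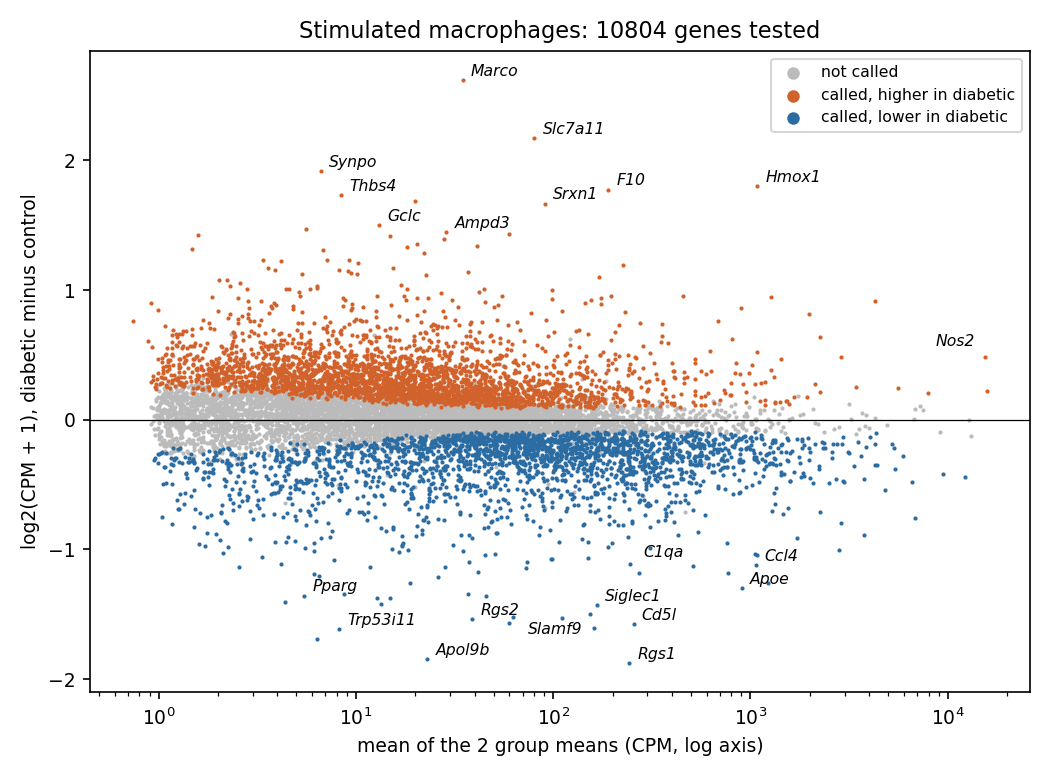
Each point is 1 of 10804 genes. The horizontal axis gives the mean of the 2 group means in CPM (log axis) and the vertical axis the log2 difference, diabetic minus control; orange and blue points passed an adjusted p of 0.05 (limma). Marco lies highest at 2.62 and Rgs1 lowest at -1.88.

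The largest differences described next were picked among called genes whose groups did not overlap, so their separation was a condition of the choice. The largest rise was that of Marco, a class A scavenger receptor for bacteria and particles. Marco was at 6.18 to 15.1 CPM (median 7.52) in control and at 24 to 96.2 CPM (median 62.9) in diabetic libraries. The groups did not overlap, and the log2 difference was 2.62 ± 0.32 (limma, adjusted p = 7.94e-05). Slc7a11, the cystine transporter that feeds glutathione synthesis, followed. Slc7a11 was at 19.7 to 41.4 CPM (median 24.2) in control and at 71.6 to 187 CPM (median 135) in diabetic libraries. Every diabetic library lay above every control library (log2 2.17 ± 0.25, limma adjusted p = 5.53e-05). F10, which encodes coagulation factor X, behaved likewise. F10 was at 37.7 to 124 CPM (median 94.3) in control and at 197 to 341 CPM (median 311) in diabetic libraries. Its difference was log2 1.77 ± 0.27, limma adjusted p = 0.000315, with no overlap.

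Other large rises concerned genes of low or moderate level. Synpo, an actin-associated protein gene, had a median of 2.06 (control) and 10.4 CPM (diabetic) (log2 1.92 ± 0.17, limma adjusted p = 2.13e-06). Thbs4, a thrombospondin of the extracellular matrix, had medians of 3.19 and 13.5 CPM (log2 1.73 ± 0.23, limma adjusted p = 6.36e-05). Cyp1b1, a cytochrome P450 gene induced by aryl hydrocarbon receptor ligands, had medians of 0.370 and 3.17 CPM (log2 1.43 ± 0.18, limma adjusted p = 1.66e-05), and it passed the minimum level through the diabetic group alone. None of these 3 genes overlapped between the phenotypes. The smallest p of all genes belonged to Ampd3, an AMP deaminase of purine metabolism, which was tight within both groups. Ampd3 was at 13.4 to 16.6 CPM (median 15) in control and at 37.1 to 50.4 CPM (median 42.6) in diabetic libraries. The difference was log2 1.45 ± 0.07, limma adjusted p = 1.35e-09.

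Among the genes that fell most were Rgs1 and Rgs2, inhibitors of signalling by G protein-coupled receptors. Rgs1 was at 229 to 639 CPM (median 368) in control and at 76.3 to 135 CPM (median 99.7) in diabetic libraries. Rgs2 was at 41.1 to 72.6 CPM (median 60.5) in control and at 13.7 to 31.4 CPM (median 17.9) in diabetic libraries. Neither overlapped, with log2 differences of -1.88 ± 0.24 and -1.54 ± 0.20 (limma, adjusted p = 0.000105 and 0.000111). Slamf9, a receptor of the SLAM family, fell from a median of 219.6 to 77.5 CPM (log2 -1.60 ± 0.16, limma adjusted p = 1.44e-05). Cd5l, a secreted macrophage protein, fell from 340.5 to 127 CPM (log2 -1.57 ± 0.25, limma adjusted p = 0.000499). Fcrls, a scavenger receptor-like Fc receptor relative, fell from 85.4 to 30.6 CPM (log2 -1.52 ± 0.21, limma adjusted p = 0.000185). Siglec1, the sialic acid-binding receptor CD169, fell from 220.0 to 85.7 CPM (log2 -1.43 ± 0.19, limma adjusted p = 0.000117). Trp53i11, a p53-inducible gene, fell from 11.5 to 3.33 CPM (log2 -1.61 ± 0.16, limma adjusted p = 4.40e-06). The groups overlapped in none of these 5 genes, as the choice required. Apol9b and H2-Q6, at -1.84 ± 0.16 and -1.57 ± 0.16, belong to families of near-identical copies among which reads may have been divided, so their values are uncertain.

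Genes of the antioxidant programme controlled by NRF2 rose almost throughout. Of 19 tested targets 18 rose, none fell, and the median log2 difference was 0.72 against 0.03 over all genes tested. Glutathione is the main thiol antioxidant of the cell. Beside Slc7a11, both subunits of glutamate-cysteine ligase, which makes the first bond of glutathione, rose. Gclc was at 5.01 to 7.93 CPM (median 6.37) in control and at 14.8 to 23.7 CPM (median 20.6) in diabetic libraries. Gclm was at 25.5 to 41.9 CPM (median 30.9) in control and at 70.8 to 102 CPM (median 88.5) in diabetic libraries. The phenotypes did not overlap in either subunit, with log2 differences of 1.50 ± 0.11 and 1.43 ± 0.11 (limma, adjusted p = 3.96e-07 and 9.71e-07). Enzymes that use or restore thiols rose as well. Srxn1, which repairs oxidised peroxiredoxins, had a difference of log2 1.67 ± 0.12, limma adjusted p = 9.71e-07, and Prdx1, a peroxiredoxin, log2 0.81 ± 0.09, limma adjusted p = 1.13e-05. Txnrd1, thioredoxin reductase, went from a median of 291 to 603 CPM (log2 0.95 ± 0.10, limma adjusted p = 9.42e-06). Nqo1, a quinone reductase, stood at a median of only 2.05 (control) and 5.61 CPM (diabetic) (log2 1.16 ± 0.12, limma adjusted p = 1.91e-06). The suppliers of NADPH rose less, Me1, malic enzyme, by 0.60 ± 0.14 and G6pdx, glucose-6-phosphate dehydrogenase, by 0.24 ± 0.04 (limma, adjusted p = 0.00206 and 0.000225).

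NRF2 binds antioxidant response elements, whose core was searched as TGACNNNGC on both strands of RefSeq promoters (250 bases before to 50 after a gene's start, GRCm38.p6). It was found for 7 of the 17 listed targets that have a promoter in the table (41.2%) and for 14% of all 27025 genes in it. Windows of 4 targets that rose are shown, with the match in capitals, to place the element in genes with measured rises.
Txnrd1, chr10:82859093-82859143, minus strand: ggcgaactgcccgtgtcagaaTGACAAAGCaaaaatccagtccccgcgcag
Gclm, chr3:122245402-122245452, minus strand: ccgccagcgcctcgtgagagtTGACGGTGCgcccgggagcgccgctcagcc
Prdx1, chr4:116685445-116685495, minus strand: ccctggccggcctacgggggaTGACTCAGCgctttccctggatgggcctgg
G6pdx, chrX:74428908-74428958, plus strand: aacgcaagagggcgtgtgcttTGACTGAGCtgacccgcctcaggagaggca
The match of Prdx1 also holds TGACTCA, the letters of an AP-1 site. A gene was counted if any of its promoters held a match, and neither the number of promoters per gene nor their base composition was matched. A match is a description of these letters and not a measured binding site.

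Genes of heme, iron and zinc handling also differed. Hmox1, heme oxygenase 1, had the next largest rise of a listed target. Hmox1 was at 367 to 581 CPM (median 493) in control and at 1569 to 1782 CPM (median 1690.3) in diabetic libraries. The lowest diabetic library lay above the highest control library (log2 1.80 ± 0.09, limma adjusted p = 4.19e-08). Slc48a1, which carries heme out of the lysosome, rose from a median of 108 to 167 CPM (log2 0.69 ± 0.07, limma adjusted p = 2.13e-06). Slc40a1, the iron exporter ferroportin, had medians of 2.28 and 5.34 CPM (log2 0.87 ± 0.11, limma adjusted p = 8.97e-06). Hfe, the haemochromatosis protein that takes part in iron sensing, fell instead (log2 -0.55 ± 0.10, limma adjusted p = 0.000313). Over 12 iron handling genes 5 rose and 3 fell. Of 7 metallothionein and zinc transport genes 4 rose and none fell, among them the zinc exporter Slc30a1 (log2 0.87 ± 0.07, limma adjusted p = 2.00e-07) and the metallothionein Mt2. Mt2 was at 188 to 297 CPM (median 288) in control and at 395 to 584 CPM (median 421) in diabetic libraries. The groups did not overlap for Mt2 (log2 0.74 ± 0.12, limma adjusted p = 0.000343).

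Genes of the hypoxia response and of glycolysis rose together in diabetic cells. Of 15 hypoxia genes 12 rose, none fell, and the median log2 difference was 0.43. Egln3, an oxygen-sensing prolyl hydroxylase that is itself induced by HIF, was close to the limit of counting in control libraries. Egln3 was at 0.150 to 0.623 CPM (median 0.485) in control and at 2.09 to 3.32 CPM (median 2.42) in diabetic libraries. It passed the minimum level through the diabetic group alone (log2 1.31 ± 0.11, limma adjusted p = 4.31e-07). Bnip3, a mitophagy receptor, rose from a median of 37.4 to 58 CPM (log2 0.65 ± 0.05, limma adjusted p = 2.10e-07). Vegfa, the vascular endothelial growth factor, was higher in every diabetic library. Vegfa was at 10.0 to 18 CPM (median 13.9) in control and at 22.2 to 30.5 CPM (median 27.4) in diabetic libraries. Its difference was log2 0.94 ± 0.14, limma adjusted p = 0.000105. Hif1a itself, the inducible subunit of the transcription factor, rose by 0.36 ± 0.04 (limma, adjusted p = 3.41e-06).

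In glycolysis 17 of 20 genes rose and none fell, with a median of 0.35. Gpi1, glucose-6-phosphate isomerase, had narrow groups. Gpi1 was at 229 to 271 CPM (median 259) in control and at 350.1 to 375 CPM (median 359.9) in diabetic libraries. They were separate (log2 0.51 ± 0.04, limma adjusted p = 4.31e-07). Hk2, the inducible hexokinase, rose by 0.52 ± 0.10 and Slc16a3, the lactate exporter MCT4, by 0.60 ± 0.06 (limma, adjusted p = 0.000509 and 7.57e-07). Pdk1, the kinase that limits entry of pyruvate into mitochondria, went from a median of 49.5 to 72.6 CPM (log2 0.54 ± 0.04, limma adjusted p = 2.06e-07). The respiratory chain divided by genome. Of its 7 mitochondrially encoded genes 6 rose, with a median of 0.32. Examples were mt-Cytb (log2 0.39 ± 0.06, limma adjusted p = 3.71e-05) and mt-Nd1 (log2 0.42 ± 0.07, limma adjusted p = 0.000129). Of its 25 nuclear genes 3 rose, none fell and the median was -0.01. Outside the chain, of 2 mitochondrial ribosomal RNA genes tested 1 fell and none rose (median log2 -0.50). In the tricarboxylic acid cycle 3 of 17 genes rose and 1 fell.

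The hypoxia response element core, ACGTG, was present on either strand of the promoter for 11 of 14 hypoxia genes with a sequence (78.6%) and for 14 of 20 glycolysis genes (70.0%), against 21.8% of all genes in the table. Windows of 4 genes that rose are shown because they place the motif in genes of both lists.
Egln3, chr12:54204078-54204124, minus strand: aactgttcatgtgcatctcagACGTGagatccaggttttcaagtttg
Bnip3, chr7:138909589-138909635, plus strand: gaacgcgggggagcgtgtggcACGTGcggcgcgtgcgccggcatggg
Vegfa, chr17:46025349-46025395, plus strand: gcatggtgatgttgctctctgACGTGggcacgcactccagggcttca
Ldha, chr7:46845639-46845685, plus strand: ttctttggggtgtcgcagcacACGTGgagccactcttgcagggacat
In Bnip3 and Ldha, which encodes lactate dehydrogenase A (log2 0.44 ± 0.04, limma adjusted p = 1.47e-06), the core lies within CACGTG, a palindrome that also matches the other strand and is the E-box read by other factors. The core contains a CpG pair, and neither the base composition of the promoters nor their number per gene was matched.

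**Figure D2:**
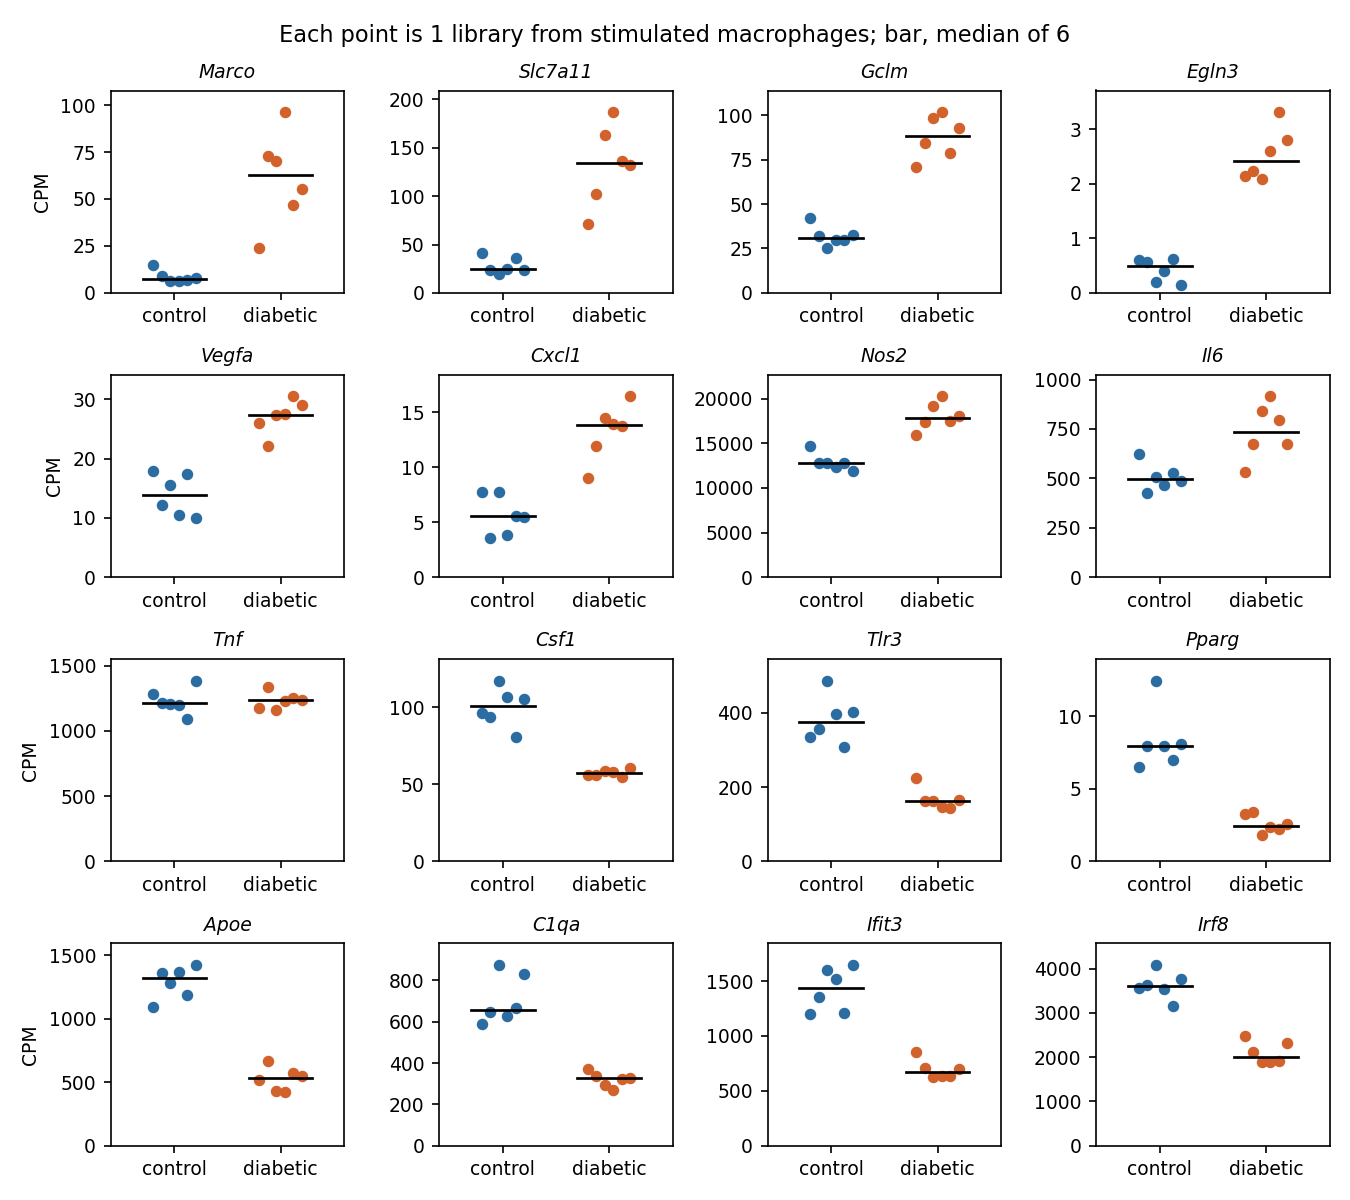
CPM of 16 genes in each of the 6 control (blue) and 6 diabetic (orange) stimulated libraries, linear axes from 0, bars at the median. Tnf and Il6 overlap between the groups, and the other 14 genes do not.

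Interferon-stimulated genes were lower in diabetic cells. Of 28 genes of the type I interferon list 27 fell and none rose, with a median log2 difference of -0.39, and the phenotypes did not overlap in 21 of them. Scaling by total reads left 22 of these falls and quantile normalization 19, with 1 gene called higher in the latter. Ifit3, an RNA-binding antiviral protein, had the largest fall of this list. Ifit3 was at 1197 to 1648 CPM (median 1440.4) in control and at 626 to 852 CPM (median 669) in diabetic libraries. The groups were far apart (log2 -1.03 ± 0.09, limma adjusted p = 1.88e-06). Ifi44, an interferon-induced protein, fell from a median of 460.1 to 291 CPM (log2 -0.66 ± 0.06, limma adjusted p = 1.23e-06). Rsad2, the antiviral enzyme viperin, fell by 0.76 on the log2 scale and Irf7, the transcription factor that amplifies type I interferon, by 0.48 (limma, adjusted p = 4.14e-05 and 4.41e-06).

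Among 20 GTPases and regulators induced by interferon-gamma 15 fell and none rose (median -0.34), while with total reads 14 fell and 3 rose. Irf8, a transcription factor of macrophage development and of the interferon-gamma response, had the largest fall of this list. Irf8 was at 3163 to 4086 CPM (median 3602) in control and at 1884 to 2489 CPM (median 2012) in diabetic libraries. No library of either group reached the other (log2 -0.79 ± 0.07, limma adjusted p = 9.71e-07). Igtp and Irgm2, immunity-related GTPases that act at vacuoles of intracellular parasites, fell by 0.53 and 0.55 on the log2 scale (limma, adjusted p = 5.61e-06 and 7.63e-06).

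The core of the interferon-stimulated response element was searched as GAAANNGAAA on both strands and occurs in 3.99% of promoters in the table. Promoters were at hand for 20 of the 28 type I and 13 of the 20 interferon-gamma genes, under 80%, so a share over these lists would be void and is not given. Windows of 4 genes that fell are shown to place the element.
Ifit3, chr19:34583352-34583403, minus strand: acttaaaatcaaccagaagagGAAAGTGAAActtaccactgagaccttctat
Rsad2, chr12:26456542-26456593, plus strand: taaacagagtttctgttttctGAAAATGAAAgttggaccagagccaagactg
Igtp, chr11:58199501-58199552, plus strand: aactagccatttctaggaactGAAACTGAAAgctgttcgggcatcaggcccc
Irgm2, chr11:58214892-58214943, plus strand: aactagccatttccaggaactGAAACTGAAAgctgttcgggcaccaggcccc
The windows of the neighbouring genes Igtp and Irgm2 are near copies, and reads of these related genes may have been divided between them.

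Antigen presentation genes moved in both directions. Of 19 genes 6 rose and 10 fell. The 6 that rose were H2-Aa, H2-Ab1, H2-Eb1, Cd74, H2-DMa and H2-DMb1, the chains of MHC class II, its invariant chain and the peptide loader. H2-Ab1 was the largest of these. H2-Ab1 was at 145 to 197 CPM (median 161) in control and at 223 to 345 CPM (median 308) in diabetic libraries. There was no overlap (log2 0.83 ± 0.10, limma adjusted p = 1.26e-05). Cd74, the invariant chain, rose by 0.63 ± 0.09 and H2-DMb1, of the loader, by 0.58 ± 0.06 (limma, adjusted p = 4.11e-05 and 3.37e-06). The genes that fell are described only in part, so a split between class II and class I over the whole list is not claimed. B2m, Cd74, H2-Aa, H2-DMa and H2-Eb1 were chosen after their values were seen. The class I pathway genes named here fell. H2-K1, a class I heavy chain, fell from a median of 2984 to 2317 CPM (log2 -0.46 ± 0.06, limma adjusted p = 2.76e-05), and B2m, the shared light chain, by 0.38 on the log2 scale (limma, adjusted p = 0.000206). Tap1, the peptide transporter, fell by 0.33 (limma, adjusted p = 7.33e-06). With quantile normalization 7 of the 19 genes were higher and 6 lower.

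Secreted mediators did not move in 1 direction. Of 19 cytokines 7 rose and 7 fell. Il10, the main anti-inflammatory cytokine of these cells, was lower throughout. Il10 was at 210.0 to 303 CPM (median 265) in control and at 115 to 168 CPM (median 131) in diabetic libraries. The difference was log2 -0.95 ± 0.10, limma adjusted p = 5.61e-06. Csf1, the growth factor of macrophages, and Il15, a growth factor of NK and memory T cells, fell as well. Csf1 was at 81 to 117 CPM (median 101) in control and at 55 to 60.6 CPM (median 57.3) in diabetic libraries. Il15 was at 242 to 309.5 CPM (median 279) in control and at 166 to 191 CPM (median 184) in diabetic libraries. Neither overlapped, at -0.78 ± 0.07 and -0.62 ± 0.06 (limma, adjusted p = 4.89e-07 and 1.13e-06). Among rises, Il12b, the shared subunit of IL-12 and IL-23, varied widely between diabetic libraries. Il12b was at 608 to 1214 CPM (median 816) in control and at 925 to 2641 CPM (median 1656) in diabetic libraries. The groups overlapped, and the difference was log2 0.94 ± 0.23, limma adjusted p = 0.00607. Within the first block of columns the call was lost (log2 0.71, limma adjusted p = 0.124). Il1b and Il6, pyrogenic cytokines, rose by 0.64 ± 0.13 and 0.53 ± 0.12 with overlapping groups (limma, adjusted p = 0.00176 and 0.0036). Tnf was at medians of 1210.4 (control) and 1234 CPM (diabetic), with a difference of log2 0.0038 ± 0.05, limma adjusted p = 0.96, and of the alternatives quantile normalization alone called it (log2 0.15, limma adjusted p = 0.0241). Nos2, the inducible nitric oxide synthase, rose without overlap (log2 0.49 ± 0.06, limma adjusted p = 9.11e-06).

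Chemokine genes moved in both directions. Ccl3 and Ccl4, which attract monocytes and T cells, fell. Ccl3 was at 1826 to 2656 CPM (median 2168) in control and at 1029.8 to 1402 CPM (median 1169) in diabetic libraries. Ccl4 was at 1264 to 1811 CPM (median 1335) in control and at 510.2 to 872 CPM (median 656) in diabetic libraries. Both were separate between phenotypes, at -0.92 ± 0.09 and -1.12 ± 0.13 (limma, adjusted p = 3.37e-06 and 1.93e-05). Ccl5, another attractant of T cells, fell by 0.19 on the log2 scale (limma, adjusted p = 0.0134), a call that was lost with total reads, quantile normalization, all 4 groups in the fit and within the first block of columns (adjusted p over all alternatives 0.00837 to 0.615). Ligands of the neutrophil receptor CXCR2 rose. Cxcl1, Cxcl2 and Cxcl3 had medians of 5.53, 161 and 5.60 CPM in control libraries. In diabetic libraries the medians were 13.9, 259.9 and 14.6 CPM. The groups did not overlap, and log2 differences were 1.13 ± 0.18, 0.68 ± 0.09 and 1.13 ± 0.14 (limma, adjusted p = 0.000215, 5.73e-05 and 1.91e-05). Of the ligands of CXCR3, which guides T cells, Cxcl11 fell (log2 -0.80 ± 0.08, limma adjusted p = 5.20e-06) and Cxcl9 was not called (log2 0.08 ± 0.05, limma adjusted p = 0.185) except with total reads (log2 0.18, limma adjusted p = 0.00338). Ccl24, an eotaxin, rose from a low level, from a median of 3.89 to 9.84 CPM (log2 1.31 ± 0.22, limma adjusted p = 0.000403). Over the lists, 2 of 11 CC chemokines rose and 5 fell, and 3 of 9 CXC chemokines rose and 3 fell.

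Receptors for complement peptides also moved apart. C3ar1, the C3a receptor, fell. C3ar1 was at 1198 to 1690.2 CPM (median 1418) in control and at 562 to 1013 CPM (median 683) in diabetic libraries. The groups did not overlap (log2 -1.05 ± 0.13, limma adjusted p = 4.20e-05). C5ar1, the C5a receptor, rose by 0.35 ± 0.06 and Cmklr1, the chemerin receptor, by 0.71 ± 0.10 (limma, adjusted p = 0.000162 and 2.50e-05).

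Sensing and signalling genes were lower in the main. Of 22 pattern recognition receptors and adaptors 15 fell and 4 rose (median -0.19), and 10 fell and 5 rose with total reads. Tlr3, the endosomal receptor for double-stranded RNA, fell furthest. Tlr3 was at 307 to 487 CPM (median 376) in control and at 143 to 224 CPM (median 162) in diabetic libraries. The lowest control library was above the highest diabetic library (log2 -1.19 ± 0.12, limma adjusted p = 9.42e-06). Irak3, an inhibitory kinase of Toll-like receptor signalling, rose (log2 0.53 ± 0.06, limma adjusted p = 4.07e-06). Of 18 NF-kB subunits and inhibitors 11 fell and 1 rose, against 6 and 4 with total reads. Nfkbiz, a nuclear co-regulator of secondary NF-kB targets, fell from a median of 722 to 440.2 CPM (log2 -0.73 ± 0.06, limma adjusted p = 4.31e-07). Rel, the subunit c-Rel, fell by 0.42 on the log2 scale (limma, adjusted p = 3.07e-05). Of 12 inflammasome genes 7 fell and none rose, among them Casp1, the protease that matures IL-1 beta (log2 -0.37 ± 0.05, limma adjusted p = 4.70e-05), and 4 fell and 1 rose with total reads. In the IL-10 pathway 9 of 13 genes fell and none rose, including Stat3, which transmits the IL-10 signal (log2 -0.32 ± 0.05, limma adjusted p = 8.75e-05), and Maf, a transcription factor of Il10 (log2 -0.49 ± 0.06, limma adjusted p = 1.13e-05). With total reads 6 fell and 1 rose. Immediate early genes and MAPK phosphatases were divided, 6 up and 6 down of 19. Dusp2, a nuclear MAPK phosphatase, fell (log2 -0.78 ± 0.07, limma adjusted p = 7.57e-07), while Dusp6, which acts on ERK, rose from a low level (log2 0.73 ± 0.09, limma adjusted p = 5.35e-06), as did Fosl1, an AP-1 subunit (log2 1.07 ± 0.12, limma adjusted p = 3.88e-06).

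Complement, lipid and scavenger genes differed in both directions. C1qa, a chain of complement C1q, which binds immune complexes and dying cells, fell. C1qa was at 588 to 875 CPM (median 657) in control and at 271 to 372 CPM (median 326) in diabetic libraries. The groups did not overlap (log2 -1.12 ± 0.10, limma adjusted p = 2.30e-06). Apoe, the lipoprotein that carries cholesterol out of macrophages, fell too. Apoe was at 1087 to 1422 CPM (median 1319.9) in control and at 421 to 663 CPM (median 535) in diabetic libraries. Its difference was log2 -1.30 ± 0.10, limma adjusted p = 1.03e-06. Pparg, a lipid-sensing nuclear receptor, was at a median of 7.96 (control) and 2.45 CPM (diabetic) (log2 -1.36 ± 0.13, limma adjusted p = 1.83e-06). C1s1, a serine protease of the same complement pathway, rose instead, from a low level (log2 1.23 ± 0.15, limma adjusted p = 1.74e-05), and so did Olr1, a receptor of oxidised lipoprotein (log2 0.75 ± 0.12, limma adjusted p = 0.000204). Over 15 complement genes 5 rose and 5 fell, and over 18 scavenger and phagocytic receptors 6 rose and 6 fell.

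Lysosomal genes fell by little but widely. Of 22 genes 15 fell and none rose (median -0.19), and with total reads 11 fell and 5 rose. Ctsd, the protease cathepsin D, fell from a median of 3408 to 2471 CPM (log2 -0.47 ± 0.08, limma adjusted p = 0.000119). Of 21 macrophage identity genes 11 fell and 4 rose, and with total reads 11 fell and 8 rose. Cd68, a lysosomal glycoprotein of macrophages, fell (log2 -0.42 ± 0.06, limma adjusted p = 4.43e-05). Csf1r, the receptor of CSF1, was not called (log2 0.03 ± 0.04, limma adjusted p = 0.54), and its groups overlapped, but total reads and quantile normalization called it higher (log2 0.14, limma adjusted p = 0.00242 and log2 0.16, limma adjusted p = 0.00066).

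**Figure D3:**
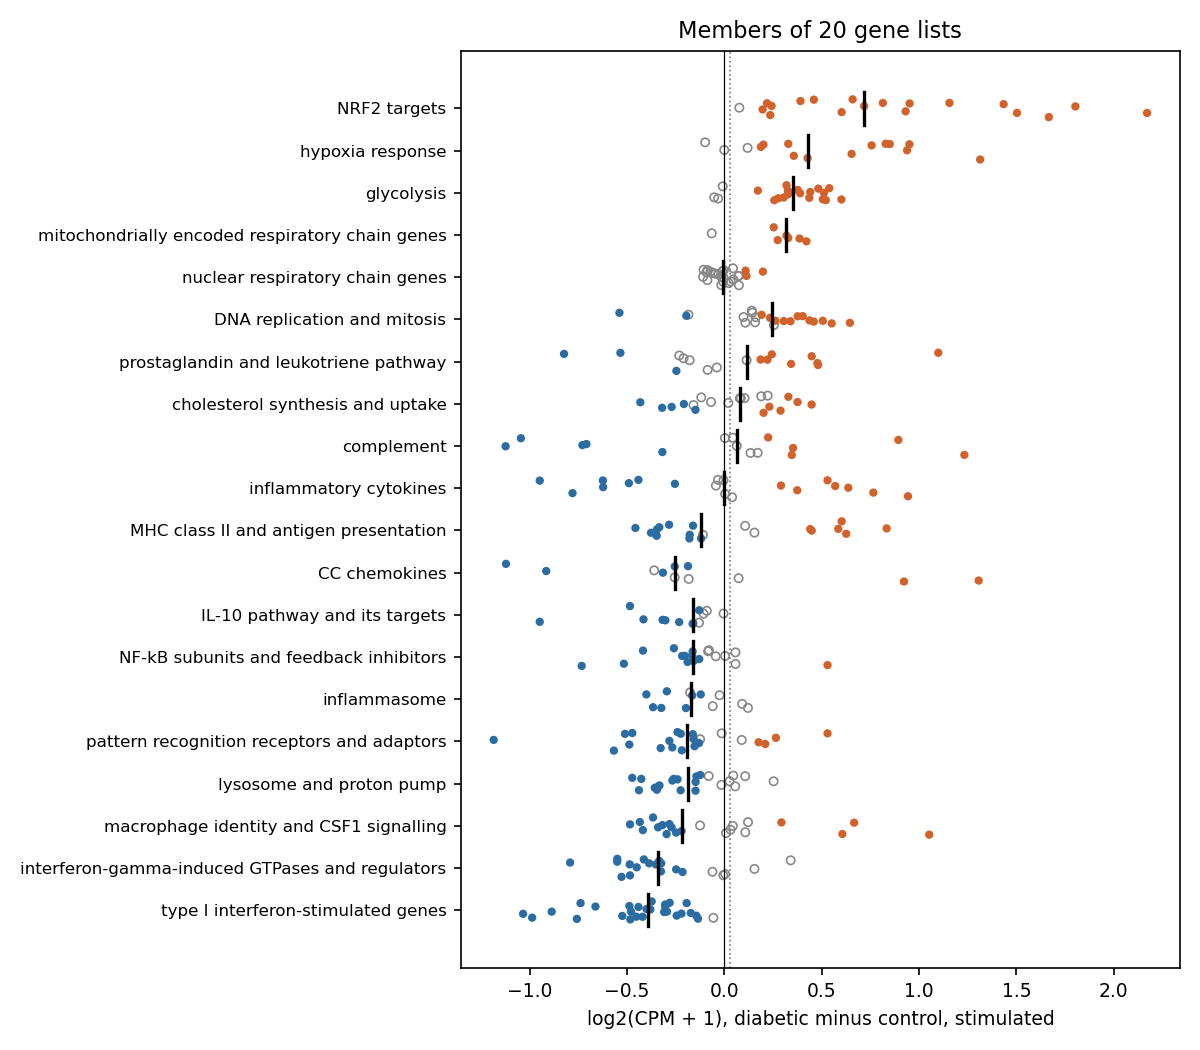
Log2 differences of the tested members of 20 gene lists in stimulated cells, diabetic minus control. Filled points passed an adjusted p of 0.05 (limma), open points did not, short bars are list medians and the dotted line is the median of all genes tested, 0.03; the NRF2 list lies farthest right (0.72) and the type I interferon list farthest left (-0.39).

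Lipid mediator genes were mixed, with 8 of 17 higher and 3 lower. Pla2g7, a secreted phospholipase that degrades platelet-activating factor, rose from a median of 107 to 245 CPM (log2 1.10 ± 0.10, limma adjusted p = 2.18e-06). Ptger4, the prostaglandin E2 receptor EP4, fell from 109 to 63.1 CPM (log2 -0.82 ± 0.06, limma adjusted p = 2.74e-07). Neither gene overlapped. Vascular signals were divided as well. Edn1, the vasoconstrictor endothelin 1, fell. Edn1 was at 251 to 369.6 CPM (median 309) in control and at 135 to 218 CPM (median 154) in diabetic libraries. The difference was log2 -0.90 ± 0.13, limma adjusted p = 0.000112. Pdgfa, a growth factor of mesenchymal cells, fell (log2 -0.75 ± 0.10, limma adjusted p = 2.23e-05), in contrast to Vegfa above. Among 21 matrix and adhesion genes 8 rose and 8 fell. Icam1, a ligand of leukocyte integrins, and Itga5, the fibronectin receptor subunit, fell by 0.44 and 0.41 on the log2 scale (limma, adjusted p = 3.88e-06 and 1.97e-05).

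Of 22 DNA replication and mitosis genes 12 rose and 2 fell (median 0.24). Mcm3, a helicase subunit of replication, was at medians of 13.6 (control) and 20.1 CPM (diabetic) (log2 0.55 ± 0.05, limma adjusted p = 8.49e-07). Mcm6, a subunit of the same helicase, fell (log2 -0.54 ± 0.08, limma adjusted p = 6.55e-05). Ccnb2, a mitotic cyclin, rose (log2 0.64 ± 0.09, limma adjusted p = 4.16e-05). Of 29 histone-modifying enzymes 8 rose and 7 fell, near the shares over all genes tested (27.3% higher and 21.8% lower). Hdac4, a class IIa histone deacetylase, and Setd7, a lysine methyltransferase, rose from medians of 4.14 and 5.30 CPM by 0.68 ± 0.08 and 0.68 ± 0.09 (limma, adjusted p = 7.83e-06 and 2.28e-05). Cholesterol genes gave 6 rises and 5 falls among 20, also near the shares over all genes tested. Hmgcs1, an early enzyme of synthesis, was at log2 -0.27 ± 0.05, limma adjusted p = 0.000348. Of 23 cytosolic ribosomal protein genes 1 rose and 2 fell.

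A few markers of other cell types were measurable and differed. Ighm, the immunoglobulin heavy chain of B cells, was low and higher in diabetic libraries. Ighm was at 0.727 to 1.91 CPM (median 1.0) in control and at 2.58 to 5.04 CPM (median 3.14) in diabetic libraries. The groups did not overlap (log2 1.03 ± 0.14, limma adjusted p = 1.79e-05), while of the other 9 B-lineage markers none reached the minimum level. Mmp8, a collagenase of neutrophils, rose without overlap (log2 0.54 ± 0.08, limma adjusted p = 2.67e-05), and S100a8, the other measurable neutrophil marker, was not called (log2 0.17 ± 0.07, limma adjusted p = 0.0566) but was under 7 of 27 alternatives (adjusted p 0.00574 to 0.548). Cd4, a T cell co-receptor that some macrophages also express, fell (log2 -0.76 ± 0.17, limma adjusted p = 0.00219), and Siglecf, a receptor of eosinophils, rose (log2 0.46 ± 0.10, limma adjusted p = 0.00119), both with overlapping groups. The call of Siglecf was lost within the first block of columns (adjusted p = 0.116). Of the dendritic cell markers Xcr1, a chemokine receptor, and Itgax rose, and Clec9a, a receptor for dying cells, and Kmo, an enzyme of tryptophan breakdown, fell. Kmo had the largest difference of these (log2 -1.40 ± 0.12, limma adjusted p = 4.31e-07), beside Xcr1 (log2 1.01 ± 0.22, limma adjusted p = 0.00197) and Clec9a (log2 -0.22 ± 0.09, limma adjusted p = 0.0471), whose call was lost under 15 of 26 alternatives (adjusted p 0.00598 to 0.401). Itgax, shared by dendritic cells and macrophages, went from a median of 134 to 225 CPM (log2 0.89 ± 0.27, limma adjusted p = 0.02), a call that was lost within each block of columns and with the replicate number as a block (adjusted p up to 0.0839). Of 8 osteoclast markers 4 rose and 1 fell. Ctsk, cathepsin K, rose from a low level (log2 0.95 ± 0.15, limma adjusted p = 0.000115). The marker that fell, Tnfrsf11a, was at 215 to 269 CPM in control and at 124 to 169 CPM in diabetic libraries. The summed level of the osteoclast markers ranged from 332 to 379 CPM over control libraries and from 264 to 288 CPM over diabetic ones. In control libraries Tnfrsf11a made up most of it.

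The difference between phenotypes was then compared with that of the unstimulated cultures of the same mice. The interaction of phenotype and stimulation was taken from a model of all 24 libraries that did not pair the cultures of a mouse. A fit with each mouse as a replicate block was run as an alternative. In unstimulated cells 2813 of 11126 genes were called (25.3%). The interaction was called for 3747 of 11710 genes (32.0%), positive for 2297 (19.6%) and negative for 1450 (12.4%). Interaction values below are the stimulated minus the unstimulated log2 difference, from limma with adjustment over all genes.

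NRF2 targets differed more after stimulation, with 10 of 19 interactions positive and none negative, and list medians of 0.72 stimulated and 0.39 unstimulated. Hmox1 had a log2 difference of 0.30 in unstimulated cells, where it was not called, and an interaction of 1.50 ± 0.16, limma adjusted p = 5.21e-07. Slc7a11 rose by 0.71 before stimulation and had an interaction of 1.46 ± 0.29, limma adjusted p = 0.00053. Marco was below the minimum level in unstimulated libraries, at medians of 0.714 (control) and 0.893 CPM (diabetic), and had an interaction of 2.62 ± 0.35, limma adjusted p = 1.44e-05. Ampd3 was not called in unstimulated cells, where its medians were 80.2 and 73.7 CPM in control and diabetic libraries, above those after stimulation. It had an interaction of 1.56 ± 0.09, limma adjusted p = 7.69e-12. The gap for Gclm widened less (0.60 ± 0.19, limma adjusted p = 0.0189), and this call was lost with the mouse as a replicate block (adjusted p = 0.0608).

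Type I interferon genes went the other way. All 28 fell in unstimulated diabetic cells, with a median of -1.18, and 24 had a positive interaction, since the stimulated gap was narrower. Irf7 fell by 2.17 on the log2 scale before and by 0.48 after stimulation (1.69 ± 0.27, limma adjusted p = 7.40e-05). Ccl5 likewise fell by 1.64 before and by 0.19 after (1.45 ± 0.25, limma adjusted p = 0.00017). Irf8 differed, with a larger fall after stimulation (-0.62 ± 0.09, limma adjusted p = 1.18e-05).

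For some falls no interaction was called. For C1qa the unstimulated difference was -1.13 and the interaction 0.01 ± 0.13, limma adjusted p = 0.972. For Siglec1 the values were -1.47 and 0.04 ± 0.27, limma adjusted p = 0.939, and for Nfkbiz -0.69 and -0.04 ± 0.08, limma adjusted p = 0.725. With quantile normalization the interaction of Nfkbiz was positive (log2 0.24, limma adjusted p = 0.022). A p above the threshold does not show that these differences are equal, and their SE give the precision. Other genes were called only after stimulation and had a called interaction. Csf1 was at 0.02 in unstimulated cells (-0.80 ± 0.14, limma adjusted p = 0.000155), Ptger4 at 0.06 (-0.89 ± 0.09, limma adjusted p = 1.83e-07), Rgs2 at -0.08 (-1.46 ± 0.23, limma adjusted p = 7.01e-05) and H2-DMb1 at 0.02 (0.57 ± 0.08, limma adjusted p = 1.11e-05). C5ar1 changed direction. It fell by 0.30 in unstimulated diabetic cells and rose after stimulation, with an interaction of 0.65 ± 0.07, limma adjusted p = 4.39e-07. Il1b did the same, falling by 0.47 before and rising after stimulation (1.11 ± 0.18, limma adjusted p = 0.000104). Hmgcs1 rose before and fell after stimulation (-0.65 ± 0.10, limma adjusted p = 2.33e-05), and 8 of 21 cholesterol genes had a negative and none a positive interaction. Cultures of both states came from the same mice, so the 2 differences are not independent.

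**Figure D4:**
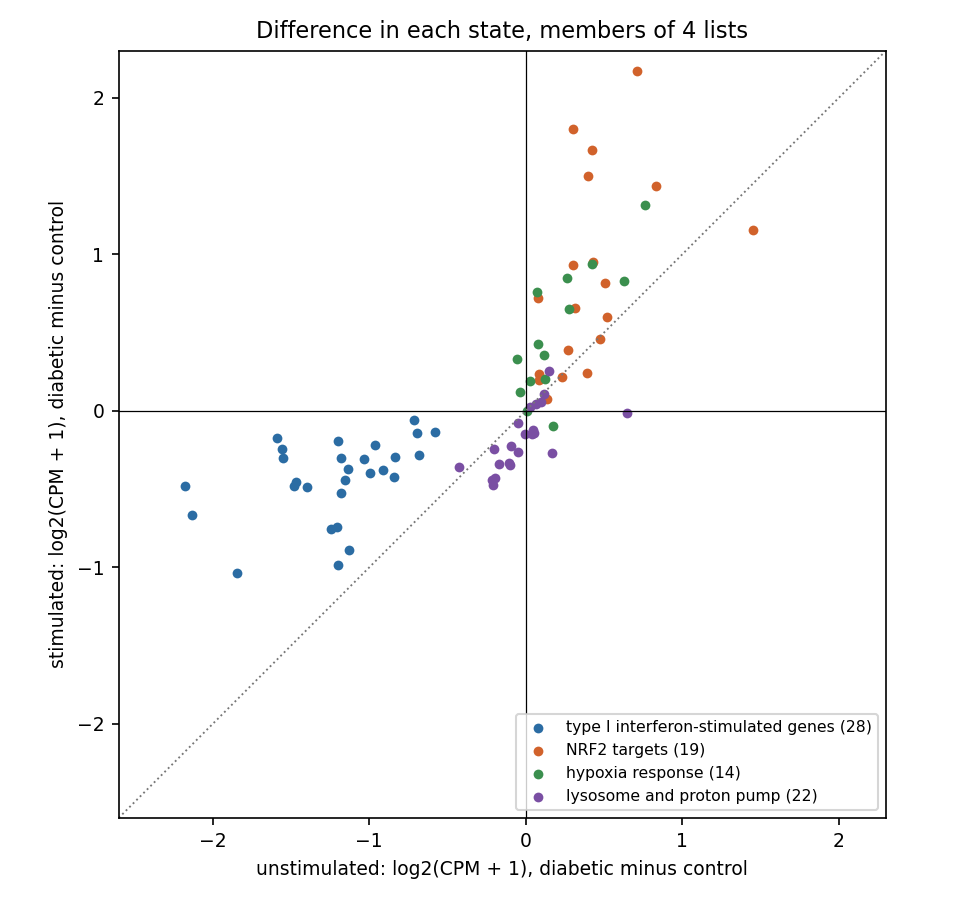
Each point is a gene of 4 lists, placed by its log2 difference (diabetic minus control) in unstimulated cells on the horizontal axis and in stimulated cells on the vertical axis; the dotted line marks equal differences. Type I interferon genes lie left of 0 and above the line, and most NRF2 targets lie right of 0 and above the line.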

How the data were processed

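The libraries are stranded mRNA libraries per the labels' protocols, although a label gives genomic DNA as the material, and were taken as RNA-seq. The submitters' processing notes name STAR 2.5.3a, edgeR 3.16.5, R 3.3.3, GRCm38 and mm10; how reads were counted is not given in the sources used. Log2 CPM were deposited by the authors for 13568 genes, scaled by an effective library size. Zeros shared the value -6.67, and subtracting this floor on the linear scale gave CPM. All values were then whole reads within 0.01. The design assumed CPM and was run on these values; no count test was run because the deposited unit is log2.

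The test of limma 3.58.1 (R 4.3.3; trend, robust empirical Bayes) on log2(CPM + 1) was run on genes that reached 1 CPM in 6 or more of the 12 stimulated libraries, unpaired, with Benjamini-Hochberg adjustment at 0.05. In 20 genes all libraries of 1 group were below this minimum. Interactions used 4 group means over 24 libraries. The fit of the 12 stimulated libraries was tested on simulated data, and the interaction fit was not. The simulation changed few genes, equally in both directions, with the spread of control libraries. It therefore does not cover differences as widespread as those called here. Exact permutation tests were made with scipy 1.17.1, and tables and figures with Python 3.11.15, pandas 2.3.3 and matplotlib 3.10.9. P-values measure the spread between mice, 1 library each, and limits of counting cover counting error only, since reads carry no molecular identifiers. The lowest chi-square per degree of freedom over the 30 replicate pairs was 3.45, so no library appeared to be repeated.

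Members and gene lists were chosen with earlier results of these data known. Named genes were the 12 largest differences in each direction with groups that did not overlap, up to 4 genes per list, by smallest p, and a panel of 12 genes, of which Arg1 did not reach the minimum level; not all of them are described. Adgre1, B2m, Cd74, Csf1r, H2-Aa, H2-DMa, H2-Eb1, Hif1a, Hk2, Ldha, Lyz2, Me1, Nqo1, Prdx1, Rsad2 and Txnrd1 lie outside this rule and were chosen after their values were seen. Some results are not reported here. Promoters come from RefSeq (GRCm38.p6), matched by symbol.

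Within a phenotype the replicate number marks the cultures of the same mouse, per the series' design text, and deviations of a mouse's libraries from their group means correlated at r = -0.08 to 0.40. Alternatives were other scalings, pseudocounts, filters, weights, fits, blocks and libraries left out. Blocks of table columns for the interaction and for library shares were added after seeing the data.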

Additional observations from a re-analysis of the deposited data

Results flagged for a closer look

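A library lay far from the other 5 of its group in 16 of 244 groups checked, where chance gives about 1 in 20. Control replicate 3 held the highest value of Apol9b (56.3 CPM), Siglec1 (383 CPM), Trp53i11 (22.3 CPM), Pparg (12.4 CPM) and Stat3 (2044 CPM). Control replicate 1 was highest for Marco (15.1 CPM), Xcr1 (4.79 CPM) and Nos2 (14748 CPM), toward the diabetic libraries, and control replicate 6 for Lyz2 (8428 CPM). Diabetic replicate 1 was highest for Apol9b (13.9 CPM), Ifit3 (852 CPM), Tlr3 (224 CPM) and Mcm6 (44.5 CPM) and lowest for Slc30a1 (52.4 CPM), in each case toward the control libraries of the gene. Diabetic replicate 5 was highest for Mt2 (584 CPM) and diabetic replicate 3 for Fosl1 (3.89 CPM).

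The difference between phenotypes was not the same in stimulated and unstimulated cells for 15 of the 18 genes whose interaction is given (limma, adjusted p under 0.05). It was more positive after stimulation for Marco (log2 2.62), Irf7 (1.69), Ampd3 (1.56), Hmox1 (1.50), Slc7a11 (1.46), Ccl5 (1.45) and Il1b (1.11). The same held for C5ar1 (0.65), Gclm (0.60) and H2-DMb1 (0.57). The call of Gclm was lost with the mouse as a replicate block. It was more negative for Rgs2 (-1.46), Ptger4 (-0.89), Csf1 (-0.80), Hmgcs1 (-0.65) and Irf8 (-0.62).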

How the results depend on the processing

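Up to 27 alternatives were run for each of 119 named genes, Tnfrsf11a not included. Of these, 108 kept their direction and their side of the threshold under every alternative, and 11 lost or gained the call under at least 1. Of 2808 counts of list members, 2563 equalled the reported count or differed from it by at most 1.5 times. Counts of 0 in both were taken as equal, among them all those of the erythroid list, which had no tested member. With total reads 4569 genes were called higher and 1435 lower. Within the first block of columns 3279 were called, 1716 higher and 1563 lower, with 3 libraries a group. Genes called with a log2 difference of at least 1 numbered 212 with the deposited log2 values, 211 with voom on the recovered reads and 55 with a pseudocount of 5 CPM, against 105. With the replicate number of the titles as a replicate block, 5210 genes were called. Same-numbered mice of the phenotypes share only a number (r = -0.29 to 0.25). Leaving out each library in turn gave 4805 to 5350 calls, 2627 to 3012 higher and 2170 to 2365 lower, with 83 to 132 of at least 1. It gave a difference of 0.148 to 0.176 percentage points in the mitochondrial share.

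The interaction was called for 3925 genes with each mouse as a replicate block, which among the values printed ended the call of Gclm alone. Leaving out each mouse gave 3176 to 3869 calls, 1946 to 2340 positive and 1230 to 1529 negative. Within the column blocks 2440 and 1642 genes were called, 1454 and 963 positive and, in the latter, 679 negative. The interaction of Nfkbiz was 0.24 with quantile normalization. Within the blocks the mitochondrial share differed by 0.119 and 0.208 percentage points and cannot pass the threshold with 3 libraries a group. The cause of these changes was not tested. Depth limits genes near 3 reads, such as Egln3 and Cyp1b1 in control libraries.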
